A study of Homo sapiens with 4 samples.

Results

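The leukocyte integrin chains and ICAM ligands examined here are 10 genes: the alpha chains ITGA4, ITGAL, ITGAM, ITGAX and ITGAV, the beta chains ITGB1, ITGB2 and ITGB7, and the ligands ICAM1 and ICAM3. They were chosen by name, as the rows of the table that carry these symbols, and all 10 were found among the 25066 genes listed. Expression was measured by RNA sequencing of NUDUL1, a human cell line from a diffuse large B cell lymphoma of the germinal center type. The cells descended from 1 clone selected for strong Cas9 activity, carried doxycycline-inducible Cas9 and were transduced with Tbxa2r, a thromboxane receptor that couples to Gα13. One group of 2 libraries is labelled control and received a control guide RNA, and the other group of 2 is labelled GNA13-deficient and received 1 guide RNA against GNA13, the gene of Gα13. All 4 libraries came from cells treated for 24 h with 10 nM U46619, a stable thromboxane mimetic that activates the receptor, so no untreated cells were compared. The comparison asks how these adhesion genes differ when the receptor is engaged with and without the Gα13 guide.

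Integrins are heterodimers of 1 alpha and 1 beta chain that hold leukocytes to other cells and to matrix. ITGAL, ITGAM and ITGAX all pair with ITGB2, and the resulting receptors bind ICAMs and, for ITGAM and ITGAX, complement fragments. ITGA4 pairs with ITGB1 to bind VCAM1 and fibronectin, or with ITGB7 to bind MADCAM1, the addressin of gut venules that guides lymphocytes to intestinal tissue. ITGAV pairs with several beta chains and binds ligands such as vitronectin and osteopontin. In germinal centers, B cells hold on to follicular dendritic cells and T cells through ITGAL with ICAM1 and through ITGA4 with VCAM1, and Gα13 acts through RhoA to restrain migration there.

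The depth was 29209544 to 31537955 mapped reads per library. Deposited values are log2 normalized reads, and they step in whole reads, so that the number of reads behind each value is known; a value listed at 0 is given as no reads, though in control replicate 2 it can stand for 1 read. In the check of the targeted gene, GNA13 itself was at log2 12.46 and 12.45 under the control label and at 13.10 and 13.11 under the GNA13-deficient label, a difference of 0.65 (standard error 0.05, limma adjusted p = 0.00214). Its mRNA was higher, not lower, under the label that says it was disrupted, and every direction given here rests on the labels. The defining B cell markers were in place. All 11 listed, among them MS4A1, CD79A, CD79B, PAX5, CD22, BCL6, MME, S1PR2 and MEF2B, had reads in every library, although BCL6 fell by 2.49 (standard error 0.10, limma adjusted p = 0.00085). The labels do not say that the 2 libraries of a group came from separate cultures, so p values measure only the spread between these libraries, which may be technical.

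Of the 10 genes, 9 had values over 0 in 2 libraries or more and could be tested, and 4 of these 9 passed an adjusted p of 0.05 in a limma fit over all 16945 genes tested. ITGAM, ITGB7 and ICAM1 were lower and ITGA4 was higher under the GNA13-deficient label. In bulk RNA, fewer cells that express a gene and less RNA per cell cannot be told apart. Over all genes tested 29.7% passed, 13.1% higher and 16.6% lower, so a share of 4 in 9 for so few genes is no result about the family. By size, 12 of the 16945 genes (0.0708%) fell at least as far as ITGAM, and 462 (2.73%) at least as far as ITGB7. The median difference of the 9 was -0.27 on the log2 scale, against -0.02 for all genes tested. Of the calls over all genes 44% were higher, and 69.1% were when each library was centred on its median. In 8 of the 9 the 2 groups of libraries did not overlap, as was true of 65.3% of all genes tested. Leaving out any 1 of the 4 libraries left 1 residual degree of freedom, and then no gene of the whole table passed in limma, these 4 included, although 5257 to 5600 had an unadjusted p under 0.05.

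**Figure D1:**
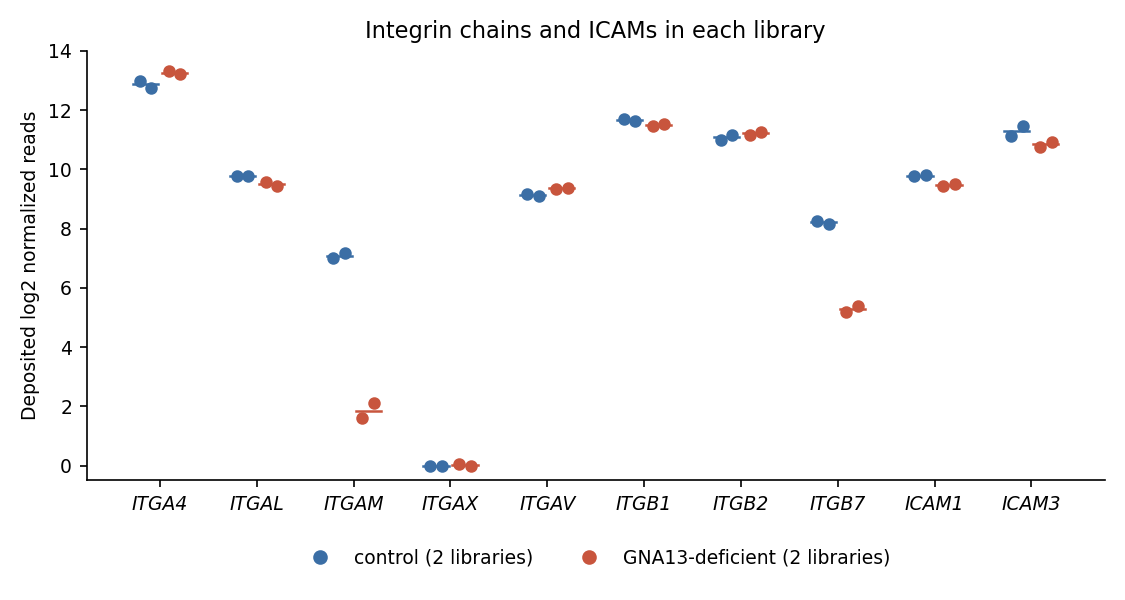
Deposited log2 normalized reads (y axis) of the 10 integrin and ICAM genes (x axis) in each library; points are the 2 libraries per group and short lines are group means. ITGAM drops from 6.99 and 7.16 to 1.62 and 2.10 and ITGB7 from 8.25 and 8.17 to 5.17 and 5.39, while the group means of the other 8 differ by at most 0.44.

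The stretches upstream of ITGAM, ITGB7 and ICAM1 are shown because these are the 3 members that passed as lower in limma. ICAM3, ITGAL and ITGB1 were also lower but did not pass, and their stretches are not shown. Each holds 215 bases of the reference, from 250 to 36 bases before the gene's start in RefSeq, taken from the RefSeq promoter table of GRCh38.p14, which covers 7 of the 10 genes. Each was placed in GRCh37, the assembly of the authors' alignment, by its single exact match. That of ITGAM lies at chr16:31271046-31271260 on the plus strand, that of ITGB7 at chr12:53601071-53601285 on the minus strand, and that of ICAM1 at chr19:10381546-10381760 on the plus strand. Capitals mark matches, on either strand, to GAGGAA (a core bound by PU.1 and other ETS factors), GGGCGG (the GC box of Sp1) and GGAAATTCC (an NF-kB site); TGTGGT (a RUNX core) was searched too and had no match in the 3.
ITGAM: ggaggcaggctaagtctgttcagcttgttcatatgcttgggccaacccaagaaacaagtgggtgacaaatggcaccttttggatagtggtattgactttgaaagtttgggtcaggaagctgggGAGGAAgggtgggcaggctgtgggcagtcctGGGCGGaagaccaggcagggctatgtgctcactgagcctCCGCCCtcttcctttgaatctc
ITGB7: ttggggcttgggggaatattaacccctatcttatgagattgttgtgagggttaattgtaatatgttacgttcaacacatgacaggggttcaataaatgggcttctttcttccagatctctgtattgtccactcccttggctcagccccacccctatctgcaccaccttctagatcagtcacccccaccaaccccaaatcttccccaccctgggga
ICAM1: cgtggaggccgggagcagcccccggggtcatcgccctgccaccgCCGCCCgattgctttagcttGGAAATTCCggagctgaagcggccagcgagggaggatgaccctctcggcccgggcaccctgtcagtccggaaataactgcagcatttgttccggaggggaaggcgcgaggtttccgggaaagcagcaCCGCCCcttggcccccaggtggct
ITGAM held 1 match to GAGGAA, a sequence found in 20.3% of the 27305 promoter windows of the same length, and 2 to GGGCGG, found in 37.9%. ICAM1 held 2 matches to GGGCGG and 1 to GGAAATTCC, which is present in 0.374% of the windows. ITGB7 held none of the 4 sequences in this window. CpG dinucleotides numbered 2 in the ITGAM window and 1 in that of ITGB7, against 18 in ICAM1 and a median of 8 over all windows. These are letters of the reference and describe neither binding nor the sequence of these cells. The shares of windows tell only how common the sequences are. They do not test a match, since the sequences were not chosen blind to these genes.

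ITGAM, the alpha chain of Mac-1 (CD11b), had log2 values of 6.99 and 7.16 under the control label and 1.62 and 2.10 under the GNA13-deficient label. These stand for 125 and 145 reads against 3 and 4 reads, so the gene was close to the limit of detection in both libraries under the GNA13-deficient label and the groups were far apart. The difference was -5.21 (standard error 0.34, 95% interval -6.09 to -4.33, limma adjusted p = 0.0016), a 37-fold lower level; with a pseudocount of 10 it was -3.40, since the fold of so low a count depends on what is added to it. From the summed reads alone, 270 against 7, the ratio was 36.7 with an exact 95% interval of 17.6 to 92.3, which covers counting error only. ITGAM (Entrez 3684) spans chr16:31271288-31344213 on the plus strand of GRCh37.

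Because CD11b is best known from myeloid cells and NK cells, their markers were read beside it. Of 9 myeloid markers, S100A8, S100A9 and FCGR3A had no reads in any library, MPO and CSF3R had at most 1 read, and CD14 had 1 and 2 reads under the control label and none under the other label. LYZ, which encodes lysozyme, fell by 2.53 (83 and 83 reads against 11 and 17, limma adjusted p = 0.00759) and was the only one of the 4 tested markers to pass. CD68, at 35 and 39 reads against 42 and 29 (difference -0.01), and CSF1R, at 15 and 16 reads against 13 and 4, did not pass. The summed log2 level of the list was 7.09 and 7.11 under the control label and 6.13 and 5.75 under the GNA13-deficient label. Of 9 T and NK cell markers, CD3D, CD3E, CD8B and CD2 had no reads and CD3G had at most 1. CD4, at 115 and 175 reads, dropped to 12 and 5 reads (difference -4.12, limma adjusted p = 0.00556), and CD8A had 5 and 5 reads against none, having entered the test only through the control libraries. The NK cell markers did not pass, with NKG7 at 5 and 7 reads against 10 and 6 (difference 0.46) and GNLY at no more than 1 read per library. The summed level of the list went from 7.0 and 7.52 to 4.62 and 3.69. Of 5 plasma cell markers 3 were lower (PRDM1 at a difference of -1.85, TNFRSF17 at -0.59 and IRF4 at -0.32). Of 9 stromal, endothelial and epithelial markers 3 were tested, and EPCAM was higher and PECAM1 lower. All of these marker counts are to be read against 13.1% higher and 16.6% lower over all genes tested. With so few genes per list they are no result about a cell type. CD4 and LYZ thus moved with ITGAM while CD68 and NKG7 did not pass, and the part of other cells in the fall of ITGAM was not tested.

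ITGB7, the beta chain that makes ITGA4 a receptor for MADCAM1, had log2 values of 8.25 and 8.17 under the control label. Under the GNA13-deficient label it was at 5.17 and 5.39, or 35 and 39 reads against 300 and 293, and the groups lay far apart. The difference was -2.93 (standard error 0.18, 95% interval -3.39 to -2.48, limma adjusted p = 0.00151), a 7.64-fold lower level. ITGB7 (Entrez 3695) spans chr12:53585107-53601066 on the minus strand, and 3.82 kb of it overlap ZNF740 on the opposite strand. The kit was stranded, but whether reads were counted by strand is not given in the sources used here; ZNF740 differed by -0.25 (limma adjusted p = 0.0742).

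ITGA4, the alpha chain that ITGB1 and ITGB7 share, went the other way. It was at log2 12.99 and 12.74 under the control label and at 13.30 and 13.23 under the GNA13-deficient label, where both libraries were higher than either control. The difference was 0.40 (standard error 0.10, 95% interval 0.15 to 0.65, limma adjusted p = 0.037), a 1.32-fold rise at 6968 to 9815 reads. This call was lost with quantile normalization, where the difference was 0.26 (adjusted p = 0.0962), and also without the filter on low values and without a variance trend (adjusted p up to 0.198). ITGA4 (Entrez 3676) spans chr2:182321929-182403667 on the plus strand and overlaps CERKL on the opposite strand by 3.90 kb; CERKL differed by 0.34 (limma adjusted p = 0.062).

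ITGB1, the common beta chain of the receptors for matrix and for VCAM1, was at log2 11.69 and 11.63 against 11.45 and 11.52. Both libraries labelled GNA13-deficient lay below both controls, but the difference of -0.18 (standard error 0.06, 95% interval -0.33 to -0.03) did not pass (limma adjusted p = 0.0751), and it turned to 0.029 when each library was centred on its median. Its level is uncertain, since the annotation holds a pseudogene, ITGB1P1, that may share its reads. ITGB2, the beta chain of all the receptors for ICAMs listed here, was at 10.99 and 11.16 against 11.16 and 11.27. Its groups touched, and the difference was 0.14 (95% interval -0.08 to 0.35, limma adjusted p = 0.29).

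ITGAL, the alpha chain of LFA-1 and the main partner of ITGB2 in lymphocytes, was at log2 9.79 and 9.78 under the control label and at 9.58 and 9.45 under the GNA13-deficient label. Both of the latter were lower, with a difference of -0.27 (standard error 0.08, 95% interval -0.46 to -0.07) that did not pass (limma adjusted p = 0.0548). ITGAV was at 9.18 and 9.10 against 9.33 and 9.38, a difference of 0.21 (95% interval 0.02 to 0.41, limma adjusted p = 0.0913). ITGAX, the CD11c chain, was not detected beyond 1 read, which fell in replicate 1 of the libraries labelled GNA13-deficient. A count of 0 allows up to 3 reads, or log2 values of 1.56 to 1.69, so no comparison of ITGAX was possible at this depth. ITGAL, ITGAM and ITGAX lie in that order on chromosome 16, ITGAL at chr16:30483979-30534888 and ITGAX at chr16:31366455-31394320, both on the plus strand, while ITGAV lies at chr2:187454737-187545628 on the plus strand, ITGB1 at chr10:33176201-33294720 and ITGB2 at chr21:46305868-46351904, both on the minus strand.

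**Figure D2:**
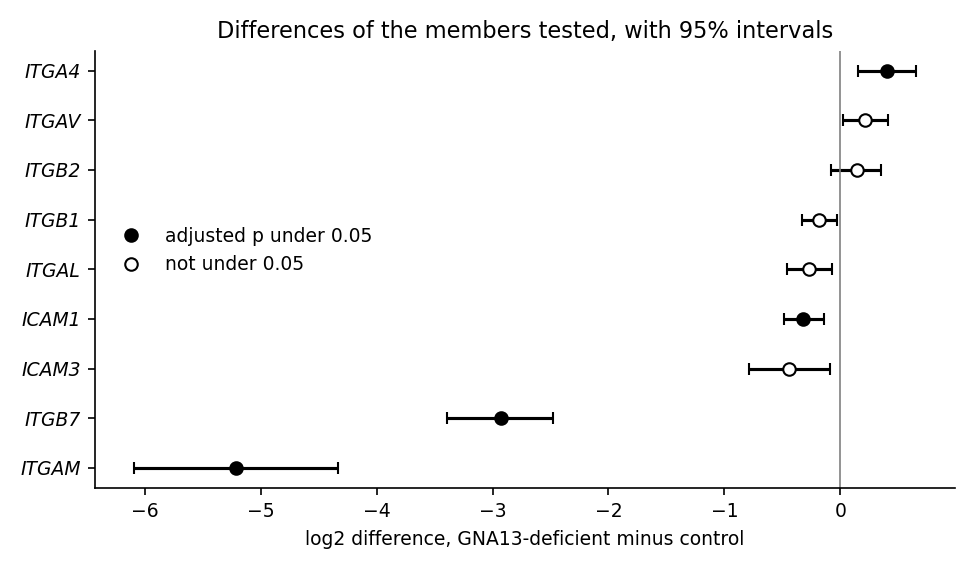
Log2 difference between genotypes (x axis, GNA13-deficient minus control) of the 9 genes tested (y axis), with 95% intervals from limma; filled points have an adjusted p under 0.05. ITGAM at -5.21 and ITGB7 at -2.93 lie apart from the other 7, which range from -0.44 to 0.40.

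Among the ligands, ICAM1, which endothelial, dendritic and B cells display to ITGAL and ITGAM, had log2 values of 9.78 and 9.80 under the control label. It was at 9.43 and 9.52 under the GNA13-deficient label, both below the controls. The difference was -0.32 (standard error 0.07, 95% interval -0.49 to -0.14, limma adjusted p = 0.0279), a 1.24-fold lower level at 670 to 904 reads. The call was lost with quantile normalization (adjusted p = 0.0567) and with median centring, where the difference was -0.11 (adjusted p = 0.352), and also without the filter on low values and without a variance trend. ICAM3, a ligand of ITGAL that resting leukocytes carry, was at 11.11 and 11.45 against 10.75 and 10.93. Its groups did not overlap, but the 2 control libraries differed by nearly as much as the groups did, and the difference of -0.44 (standard error 0.14, 95% interval -0.79 to -0.09) did not pass (limma adjusted p = 0.0696). ICAM1 (Entrez 3383) spans chr19:10381769-10397291 on the plus strand and ICAM3 (Entrez 3385) chr19:10444452-10450337 on the minus strand.

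Levels were compared between genes per kilobase of coding sequence of the canonical transcript, as normalized reads. In the libraries labelled control ITGA4 came first, with a mean of 2420, followed by ICAM3 at 1530, ITGB1 at 1350, ITGB2 at 938, ICAM1 at 553, ITGAL at 251, ITGAV at 180, ITGB7 at 124 and ITGAM at 39.1. ICAM3 and ITGB1 cannot be ordered there, since the control libraries were at 1340 and 1710 for ICAM3 and at 1380 and 1330 for ITGB1. In the libraries labelled GNA13-deficient ITGA4 stood at 3180, ITGB1 at 1200, ICAM3 at 1120 and ITGB2 at 1030, while ITGB7 was at 16.3 and ITGAM at 1.07. There ICAM3 at 1050 and 1190 overlapped both ITGB1 at 1170 and 1230 and ITGB2 at 989 and 1070, and ITGAL at 219 and 199 overlapped ITGAV at 205 and 212. Alpha chains of the ITGB2 family thus amounted to far less mRNA per length than ITGB2 itself in both groups.

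The makeup of the chains that share a partner was then read within each library, which does not depend on how libraries were scaled. Of the 3 members that are alpha chains of ITGB2, ITGAM made up 12.7% and 14.2% per coding length under the control label. Under the GNA13-deficient label it made up 0.405% and 0.621%, and ITGAL accounted for 99.5% and 99.4%. ITGAD, an ITGB2 partner outside the members, was left out of these shares. It had no reads under the control label and 0 and 8 under the other, where replicate 2 had more ITGAD than ITGAM reads. Of the 2 beta chains that pair with ITGA4, ITGB7 made up 8.44% and 8.33% under the control label and 1.27% and 1.41% under the other label. In both sets the smaller share was lower in each library under the GNA13-deficient label than in either control.

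**Figure D3:**
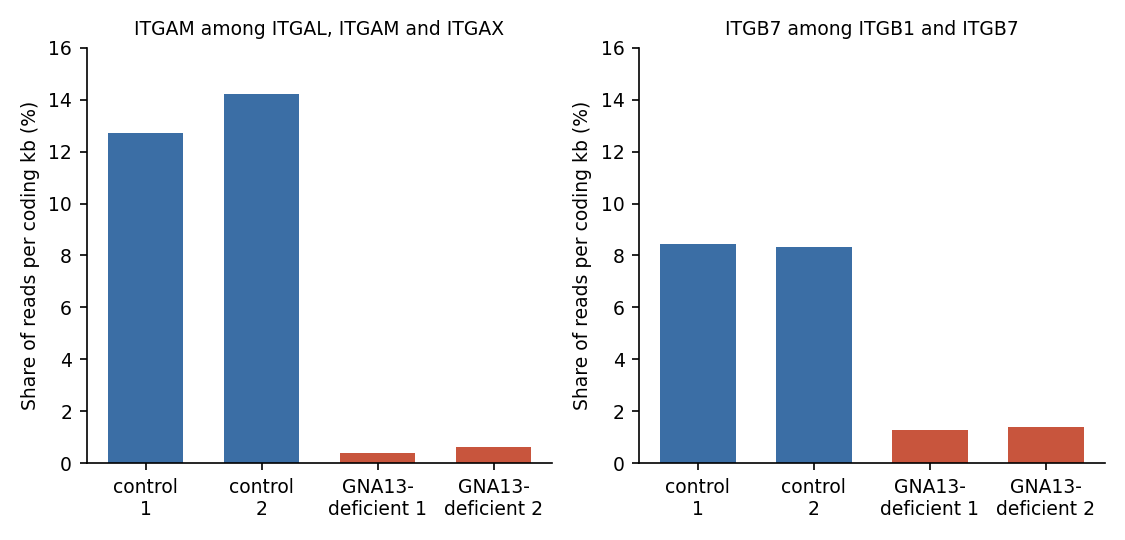
Share (y axis, percent of normalized reads per coding kilobase) of ITGAM among ITGAL, ITGAM and ITGAX (left) and of ITGB7 among ITGB1 and ITGB7 (right) in each of the 4 libraries (x axis). ITGAM goes from 12.7% and 14.2% to 0.405% and 0.621%, and ITGB7 from 8.44% and 8.33% to 1.27% and 1.41%.

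Differences between pairs of members within a library were also taken on the log2 scale. ITGA4 exceeded ITGB7 by 4.74 and 4.57 under the control label and by 8.13 and 7.84 under the GNA13-deficient label. ITGB7 minus ITGB1 was -3.44 and -3.46 against -6.28 and -6.13. The distance of ITGB7 to both of its counterparts was thus wider under the GNA13-deficient label. The pair of ITGA4 and ITGB1 moved less, with ITGA4 minus ITGB1 at 1.30 and 1.11 against 1.85 and 1.71, and ITGAL minus ITGB2 went from -1.20 and -1.39 to -1.57 and -1.82. ITGB2 minus ITGB1 was -0.71 and -0.47 against -0.29 and -0.25. For these 5 pairs the groups did not overlap. ICAM1 minus ICAM3 overlapped between groups, at -1.33 and -1.66 against -1.32 and -1.42. An exact two-sided permutation test of 2 against 2 libraries cannot go below 0.33, the value it gave for the first 5 pairs, and it gave 0.667 for ICAM1 minus ICAM3.

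Genes next to ITGAM and ITGB7 on the chromosome were read to see how far the falls reached; this window of 250 kb on either side was chosen after the values of the members were seen. Of 16 tested coding genes around ITGAM, 2 rose and 3 fell past the threshold, against 13.1% higher and 16.6% lower over all genes tested, and their median difference was -0.08. These counts lie near the background. Among them was TRIM72, a gene of membrane repair 28.4 kb away, at log2 6.13 and 5.78 under the control label and 2.62 and 2.69 under the other label (difference -3.30, standard error 0.33). PYCARD, the inflammasome adaptor 56.5 kb away, fell by 0.67 (standard error 0.15). Around ITGB7, 3 of 14 tested coding genes passed as higher and 0 as lower, against 13.1% and 16.6% of all genes tested. There, ESPL1 (separase) had the highest difference, 1.06; the lowest, -0.58 for CSAD, did not pass (limma adjusted p = 0.567). Among the genes tested around both, TRIM72 thus came nearest in size to the falls of ITGAM and ITGB7. The same window around ICAM1, itself at a difference of only -0.32, held 17 tested genes. Of these, 4 passed as higher and 2 as lower, with ANGPTL6 the lowest at -2.22 (27 and 37 reads against 6 and 7). Around ITGAL, 3 of 17 tested genes passed as higher and 0 as lower. A large fall of a single neighbor was thus also seen beside a member that changed little.

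**Figure D4:**
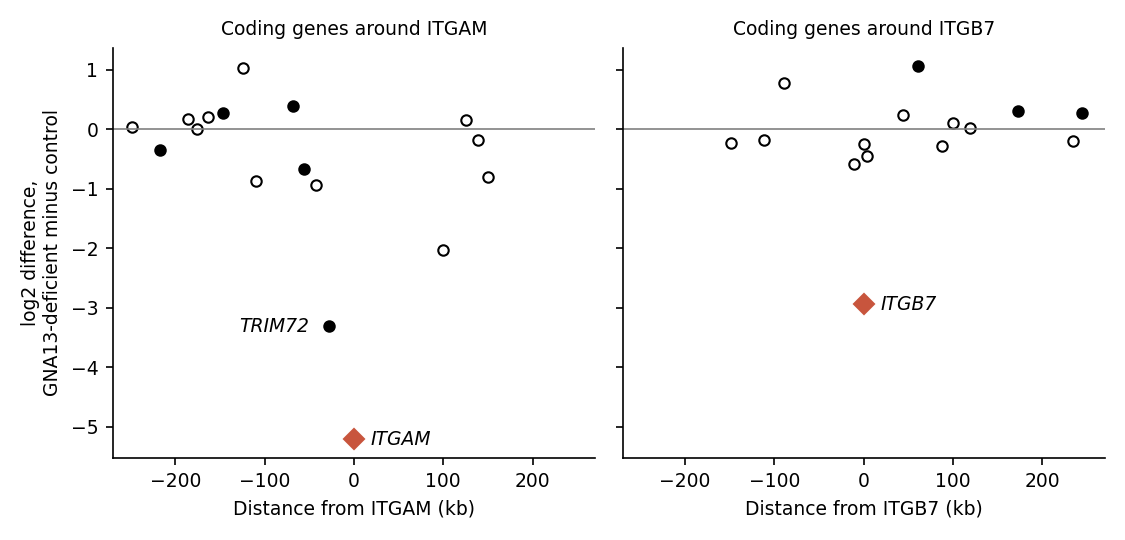
Log2 difference between genotypes (y axis, GNA13-deficient minus control) of tested coding genes within 250 kb of ITGAM (left, 16 genes) and ITGB7 (right, 14 genes), by distance in kilobases (x axis); diamonds are ITGAM and ITGB7, filled circles have a limma adjusted p under 0.05. TRIM72 at -3.30 lies nearest to ITGAM in size, and no neighbor of ITGB7 lies below -0.58.

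Of the 18 other integrin chains, 14 were tested, 2 were called higher and 3 lower, with a median difference of 0.07. ITGA5, the fibronectin receptor chain that pairs with ITGB1, was at 138 and 153 reads under the control label and at 9 and 12 under the GNA13-deficient label, a difference of -3.74 (standard error 0.30, limma adjusted p = 0.00221). ITGA11, a collagen receptor chain, went from 22 and 23 reads to 4 and 3 (difference -2.63, adjusted p = 0.00784). ITGA3, a laminin receptor chain that was singled out after its values were seen, fell by 1.44 (293 and 293 reads against 113 and 93). ITGB3, a beta partner of ITGAV, rose by 1.5 (standard error 0.19, limma adjusted p = 0.00636), from 47 and 49 reads to 139 and 120. ITGB5, another partner of ITGAV, had no reads under the control label and 3 and 6 under the other label; it is 1 of the 2 called higher, but it entered the test only through the libraries where it had reads, and no fold can be given.

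Of 17 other integrin ligands, 16 were tested, 3 were higher and 3 lower, with a median of -0.14. SPP1, which encodes osteopontin, a ligand of ITGAV and ITGA4 integrins, had 115 and 107 reads under the control label and 492 and 500 under the GNA13-deficient label, a rise of 2.23 (standard error 0.12, limma adjusted p = 0.00114). JAM2, a junctional molecule that binds ITGA4 with ITGB1, rose by 1.26 (37 and 25 reads against 76 and 63, adjusted p = 0.0392). ICAM4, of the red cell lineage, had 5 and 4 reads against 1 and 1, and MADCAM1 had 6 and 3 against 0 and 1. Both passed as lower, at levels where a few reads decide the value. THY1, the other ligand called lower and named after its values were seen, fell by 0.82 (limma adjusted p = 0.00258). It had 2658 and 2875 reads under the control label and 1605 and 1386 under the GNA13-deficient label. The vector that carried Tbxa2r also held a Thy1 reporter, for which the cells were sorted. Whether reads of that reporter were counted under THY1 was not tested. VCAM1, the chief ligand of ITGA4 with ITGB1, had no reads in any library.

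Inside-out activation is the process by which talin, kindlins and the small GTPase Rap1 switch integrins to their binding form. Of 35 genes of this process, 32 were tested, 2 were higher, 9 lower and 21 did not pass, with a median of -0.16. SIPA1L2, of a family of Rap GTPase-activating proteins, went from 746 and 774 reads to 54 and 53, a difference of -3.76 (standard error 0.11, limma adjusted p = 0.000661). RAP1GAP2, listed under its older symbol GARNL4 and also a Rap GTPase-activating protein, fell by 2.54 (349 and 300 reads against 65 and 43). CYTH3, a cytohesin, fell by 1.55, and RASGRP3, an exchange factor for Ras and Rap of B cells, fell by 0.77.

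Of 37 genes of focal adhesions and outside-in signaling, 36 were tested, 5 were higher, 14 lower and 17 did not pass, with a median of -0.19. BCAR1, the adaptor p130Cas, had 45 and 42 reads under the control label and 0 and 2 under the other label (difference -4.89, standard error 0.50, limma adjusted p = 0.00373); the ratio of summed reads was 41.4, with an exact interval of 11.1 to 348 for counting error. PARVB, a parvin that joins integrin-linked kinase to actin, fell by 3.32 (794 and 925 reads against 74 and 90, adjusted p = 0.00102), while its relative of blood cells, PARVG, named after its values were seen, differed by 0.18 (adjusted p = 0.325). LIMS2, a PINCH adaptor of the same complex, fell by 1.81. TNS3, a tensin that binds beta chain tails, rose by 1.69 (345 and 429 reads against 1268 and 1106, adjusted p = 0.00169).

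Of 29 other adhesion receptors, 25 were tested, 6 were higher and 7 lower, with a median of -0.02. CD9, a tetraspanin that associates with integrins, had 3499 and 3911 reads under the control label and 248 and 267 under the GNA13-deficient label, a difference of -3.78 (standard error 0.09, limma adjusted p = 0.000594). MCAM fell by 3.66 (699 and 673 reads against 46 and 58) and PECAM1 fell by 3.03 (112 and 115 against 11 and 16). CD6 went from 26 and 20 reads to 3 and 4, a difference of -2.65. All 5 lists were written from general knowledge with earlier results of these data known, and their counts are to be read against the 13.1% higher and 16.6% lower over all genes tested.

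**Figure D5:**
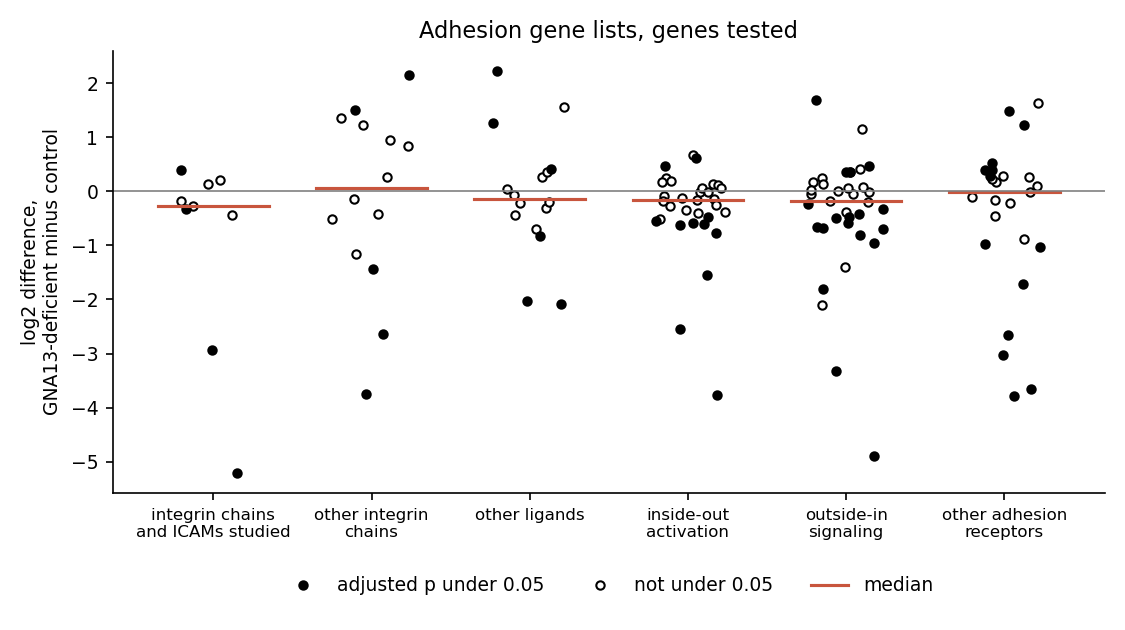
Log2 difference between genotypes (y axis, GNA13-deficient minus control) of every tested gene in the integrin and ICAM set and in 5 other adhesion lists (x axis); filled points have a limma adjusted p under 0.05 and lines are list medians. Medians lie between -0.27 and 0.07, while single genes such as ITGAM, BCAR1, SIPA1L2 and CD9 lie far below them.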

How the data were processed

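RNA from NUDUL1 cells was sequenced as 2 libraries per genotype with a stranded poly(A)-based kit. Alignment by the authors was to hg19, with STAR; the submitters' processing notes also name HTSeq. The deposited values are log2 normalized reads, used as they stand; the method of normalization is not given in the sources used here. A first row of linear totals was used only for depth. On the linear scale the deposited values were whole reads times a constant (0.984 to 1.08 per library) for 100% of values of up to 400 reads, within 0.01 read beyond the rounding of the deposited decimals. In control replicate 2, 1 read lies below the lowest listed value, so a 0 there can stand for 1 read.

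Genotypes were compared with limma 3.58.1 (R 4.3.3) with a mean-variance trend and genotype as the only term, on 16945 genes above 0 in at least 2 libraries, with no pseudocount and Benjamini-Hochberg adjustment over all of them. Groups came from the sample titles. The pipeline was tested on simulated data. Members and lists were chosen with earlier results of these data known. Named genes were all members, GNA13 and, per list, up to 4 passing genes with the largest difference; others are stated as named after their values were seen. Lengths and places came from GENCODE v44 on GRCh37; of the listed symbols, 4 were matched through older names. Alternatives were to drop the filter or set it at the median mean, pseudocounts of 1 and 10, quantile normalization, median centring, the replicate block, no variance trend, a robust prior, voom on recovered reads and leaving out each library. Some genes of the lists and neighborhoods are not reported here.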

Additional observations from a re-analysis of the deposited data

How the results depend on the processing

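ITGAM and ITGB7 kept their direction and their call in each alternative with all 4 libraries that tested them, between -5.21 and -3.40 and between -2.93 and -2.61; the filter at the median of the means removed both. With 1 library left out, the lone library of its group is assumed to vary like the other group and 1 residual degree of freedom is left: limma then called 0 genes in all 4 fits, 0 members and 0 genes of each list, though 5257 to 5600 genes had an unadjusted p under 0.05. ITGAM then lay between -5.45 and -4.97 (adjusted p from 0.0708 to 0.079) and ITGB7 between -3.05 and -2.82 (the same range of adjusted p), ITGA4 between 0.27 and 0.52 and ICAM1 between -0.36 and -0.27.

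With no filter on low values, 1999 genes, 2 members, 3 other integrin chains, 4 inside-out, 7 outside-in and 6 other adhesion genes were called; without a variance trend 2718 genes, 2 members, 3 ligands, 7 inside-out, 9 outside-in and 8 other adhesion genes were. The filter at the median of the means left 1 other integrin chain called. The cause was not tested. With median centring the median of all genes went from -0.02 to 0.18, and 69.1% of calls were rises, against 44% without it and 54.6% with the filter at the median; ITGB1 then turned to 0.029. The groups share replicate numbers, and same-numbered libraries deviated together (correlation 0.453 over 8473 genes), but no source pairs them. With the replicate block 6616 genes, 7 members and 18 inside-out genes were called, ITGAL, ITGB1 and ICAM3 among them; no other call of a member changed.

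ITGA4 minus ITGB7 changed by 3.05 with a pseudocount of 10 and by 2.87 with quantile normalization, ITGB7 minus ITGB1 by -2.47 and -2.39. Leaving out 1 library gave -0.038 to 0.29 for ICAM1 minus ICAM3, below 0 without control replicate 2, which reversed it. Per transcript length, ITGA4 ranked 2 and ICAM3 1, ITGAV 8 and ITGB7 7 among members in control. Of the other values of single members with all 4 libraries, 68 kept direction and side of the threshold, 12 passed only in the alternative (of ICAM3, ITGAL, ITGAV and ITGB1) and 7 lost their call (of ITGA4 and ICAM1).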
